A study of Mus musculus with 6 samples.

Results

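Fibril-associated collagens do not build fibrils themselves but sit on the surface of fibrils made by other collagens, and 8 genes of this family were examined together with Col15a1 in mouse melanoma grafts. The 9 genes (Col9a1, Col9a2, Col9a3, Col12a1, Col14a1, Col16a1, Col19a1, Col22a1 and Col15a1) were found by their symbols among the 45777 genes of the deposited expression matrix, and each symbol matched 1 row. Total RNA had been sequenced from 3 tumors of the hind footpad and 3 tumors of the flank skin, all grown from B16F10 cells, a mouse melanoma line, with 1 library per tumor. The labels name Foxn1-/- mice at an age of 8 weeks as hosts of both groups. These mice lack a thymus and therefore most T cells, so that both groups were grown under the same immune defect. The paper describes B16F10 grafts of the flank and the footpad made at the same time in C57BL/6J mice and, for some experiments, in Foxn1-null mice. It does not say which hosts bore the sequenced tumors. No label ties a footpad tumor to a flank tumor of the same animal or says whether tumors came from separate cultures, so that p-values measure only the spread between these tumors. The methods speak of tumor cells taken from the implantation sites but name no sort or gate, and markers of host cells were present in all libraries. The study asked how the transcriptome differs between a site that bears weight and one that does not.

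Collagens with interrupted triple helices share a common plan, in which short collagenous stretches anchor the molecule to a fibril and large non-collagenous domains point away from it. Type IX collagen, made of the chains of Col9a1, Col9a2 and Col9a3, covers the type II collagen fibrils of cartilage. Types XII and XIV, each made of 3 copies of 1 chain, lie on the type I collagen fibrils of dermis, tendon and other dense tissue. Type XV collagen is a proteoglycan of the basement membrane zone around vessels and muscle, and is a relative of type XVIII collagen rather than of the fibril-associated family.

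The tumors held between 46529649 and 66364366 reads on genes. Levels are given as CPM, read counts scaled to a common library size with TMM factors. The sites were compared by a quasi-likelihood test in edgeR, fitted to 17210 genes left after its filter, and a gene was called at a Benjamini-Hochberg adjusted p under 0.05 with a fold of 2 or more. Log2 fold changes are footpad minus flank, and their standard errors were approximated from the F statistic. Of the 9 genes, 8 passed the filter and Col22a1 did not. Among those 8, edgeR called 1 higher (Col15a1) and 1 lower (Col9a1) in footpad tumors, where it called 2.89% of all genes tested higher and 0.872% lower. The tumors of the sites did not overlap by CPM for 6 of the 8, with 4 higher and 2 lower in footpad tumors, against 17.5%, 14.9% and, for both together, 32.5% of all genes. Among the 4 was Col19a1, which had at most 19 reads in a tumor and overlapped by unscaled reads and by FPKM. Among the 2 was Col9a2, which had at most 19 reads in a footpad tumor. DESeq2 was the tool with which the authors normalized their counts and adjusted the p-values of their comparison. It called 3 members higher and 1 lower, beside 6.71% and 2.05% of all genes. Without flank replicate 2, edgeR called 3 higher and 1 lower, beside 2.39% and 0.542% of all genes. That tumor was the highest of its site for Col12a1, Col14a1 and Col15a1. Without footpad replicate 1, edgeR called 0 members higher and 1 lower, beside 26 and 5 of all genes. Without flank replicate 3 it also called 0 and 1, beside 36 and 10. Without footpad replicate 3, or with the replicate number as a block, it called 0 members and 0 genes in either direction. The median log2 fold change of the 8 genes was 0.73, that of all genes tested was -0.0042, and the 8 values ranged from -3.43 to 2.21. Since a gene could pass the filter through 1 site alone, the median does not stand for all 9. Bulk RNA does not separate a change in the number of cells of a type from a change in RNA per cell.

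**Figure D1:**
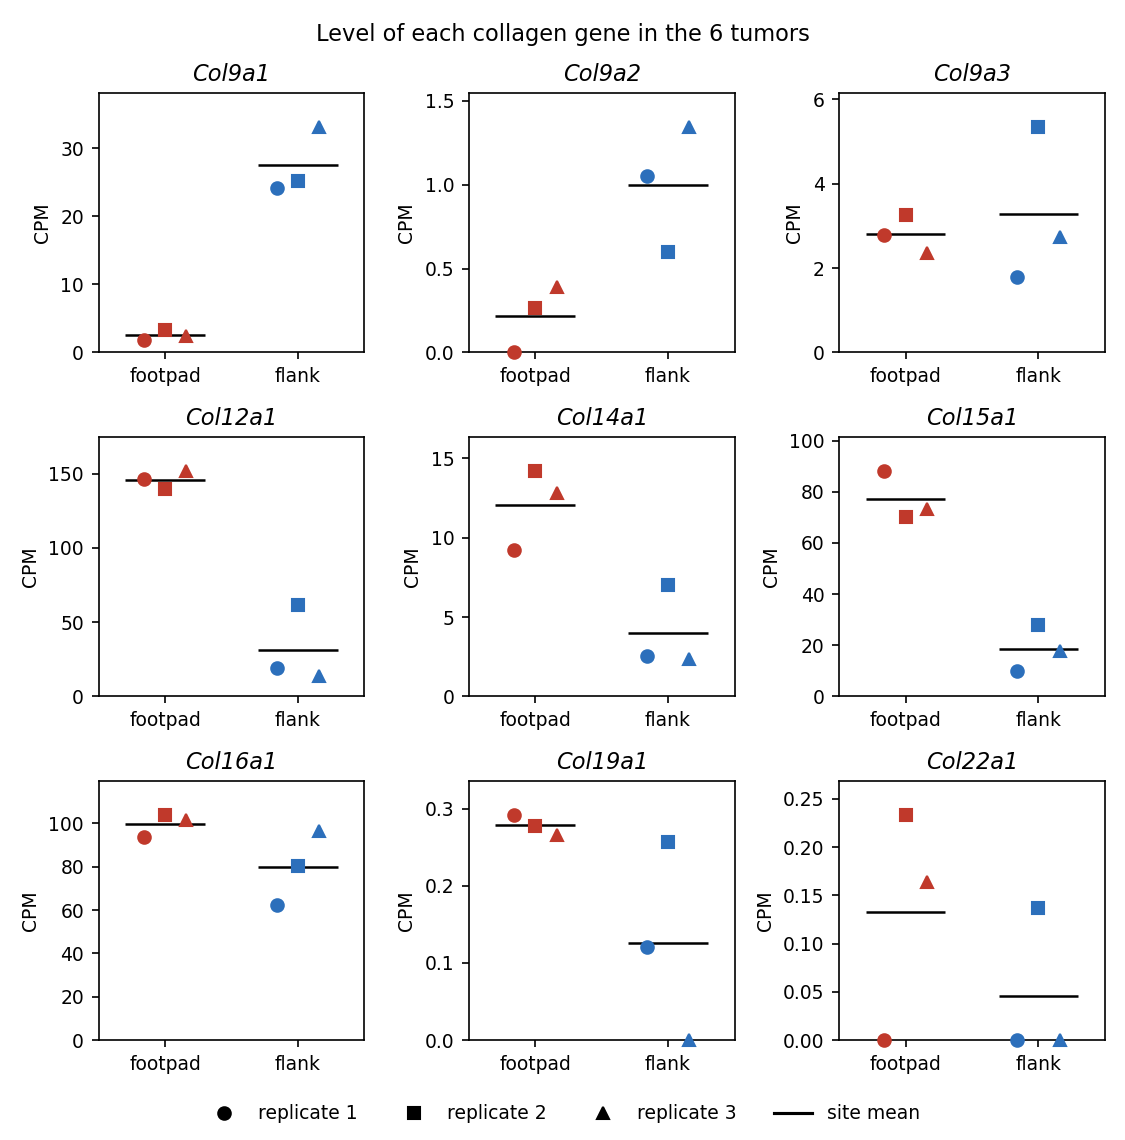
CPM (y axis, linear from 0, a scale of its own in each panel) of the 9 collagen genes in the 3 footpad (red) and 3 flank (blue) tumors, with marker shapes for replicates and a line at the mean of each site. Col9a1 lies at 1.89 to 3.30 CPM in footpad and 24.2 to 33.1 CPM in flank tumors, while Col12a1, Col14a1 and Col15a1 lie higher in each footpad tumor, and flank replicate 2 is the highest flank tumor for these 3 genes.

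Col9a1, which encodes the α1 chain of type IX collagen, showed the largest difference of the 8 genes tested and was lower in footpad tumors. The footpad replicates 1, 2 and 3 held 1.89, 3.30 and 2.43 CPM. The flank replicates 1, 2 and 3 held 24.2, 25.3 and 33.1 CPM. Every flank tumor thus lay far above every footpad tumor, and the spread within each site was small beside the gap. The means were 2.54 ± 0.711 CPM (SD, n = 3) in footpad and 27.5 ± 4.84 CPM in flank tumors, 10.8-fold lower in the footpad (log2 fold change -3.43, standard error 0.26, edgeR adjusted p = 0.00677). The call was kept in 5 of the 6 fits that left out 1 tumor. Without footpad replicate 3 the log2 fold change was -3.40 and the adjusted p 0.0541 from edgeR, and over all alternatives the adjusted p was at most 0.0552.

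The gene lies on the plus strand of chromosome 1 of GRCm38 from 24177589 to 24252738. RefSeq gives it a pair of transcript starts, which lead to a long and a short form of the chain, and the deposited counts per gene do not separate them. The starts used are at 24177610 and 24195203, both inside the gene bounds just given. The 250 bases before each start are shown because Col9a1 carries the largest change of the family, with the first 10 transcribed bases in capitals (RefSeq, GRCm38.p6, plus strand, 5′ to 3′).
Col9a1 long form, chr1:24177360-24177619: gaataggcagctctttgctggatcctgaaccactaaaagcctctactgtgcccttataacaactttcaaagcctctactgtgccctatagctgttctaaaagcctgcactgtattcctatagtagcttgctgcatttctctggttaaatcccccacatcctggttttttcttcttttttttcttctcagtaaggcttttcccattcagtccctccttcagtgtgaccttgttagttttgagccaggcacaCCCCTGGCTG
Col9a1 short form, chr1:24194953-24195212: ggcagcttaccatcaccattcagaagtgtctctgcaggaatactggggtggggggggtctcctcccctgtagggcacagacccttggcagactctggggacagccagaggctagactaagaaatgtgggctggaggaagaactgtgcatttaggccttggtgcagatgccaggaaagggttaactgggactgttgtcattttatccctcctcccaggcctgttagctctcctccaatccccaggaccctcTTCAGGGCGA
Neither window held the TEAD motif GGAATG, the AP-1 motif TGANTCA, the SP/KLF motif GGGCGG or the TATA box TATAAA on either strand. Of 32851 RefSeq windows of 250 bases, 12.6% held the TEAD motif, 6.75% the AP-1 motif, 32.7% the SP/KLF motif and 12.4% the TATA box. Each motif was counted on its own, whether or not its match overlapped that of another, and a window without a match says only that these letters are not in it.

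Col9a2 and Col9a3 encode the α2 and α3 chains, which join the α1 chain in type IX collagen. Col9a2 had 0, 18 and 19 reads in the footpad tumors and 61, 35 and 84 reads in the flank tumors. All 3 flank tumors lay above the footpad tumors, at 1.05, 0.599 and 1.34 CPM against 0, 0.263 and 0.388 CPM. The difference did not pass (log2 fold change -2.17, standard error 0.95, edgeR adjusted p = 0.205). Col9a3 was at 2.78, 3.27 and 2.37 CPM in footpad tumors and at 1.79, 5.34 and 2.73 CPM in flank tumors. Its footpad values lay within the range of the flank tumors (log2 fold change -0.23, standard error 0.42, edgeR adjusted p = 0.773). Without flank replicate 2 its log2 fold change was 0.30. Exons of Col9a3 overlap exons of Tcfl5 on the opposite strand, and the strand setting of the counting is not given in the sources used here.

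The balance between chains of type IX collagen was compared next. The log2 ratio of Col9a1 to Col9a3, in CPM, was -0.56, 0.01 and 0.04 in footpad replicates 1, 2 and 3. It was 3.76, 2.24 and 3.60 in flank replicates 1, 2 and 3. By CPM, which is not scaled for length, the ratio was thus near even in footpad tumors and in favor of Col9a1 in flank tumors. The mean difference was -3.37 (p = 0.1 in a two-sided exact permutation test, which cannot go lower with 3 tumors a site). Relative to Col9a3, 1.24% of the 16252 genes tested with reads in every tumor were lower in every footpad tumor. With FPKM values, which are scaled for transcript length, the log2 ratio was -1.01, -0.48 and -0.09 in footpad replicates 1, 2 and 3. Col9a3 thus lay above Col9a1 in each footpad tumor by FPKM. The flank mean was 3.07, and the difference was -3.60. This ratio was chosen after the values were seen.

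Col9a1 was also compared with genes of the cells and tissues in which it could be made. Melanocyte markers, the genes of the injected cell type, summed to 10067 to 18637 CPM in footpad tumors and to 14814 to 25513 CPM in flank tumors, and the 8 genes each overlapped between the sites (adjusted p from 0.198 to 0.768 in edgeR's test). Relative to that sum, Col9a1 had a mean log2 ratio of -12.4 (SD 0.0493, n = 3) in footpad and -9.42 (SD 0.549, n = 3) in flank tumors, without overlap (difference -2.99, exact permutation p = 0.1, two-sided). Of the 16252 genes tested with reads in every tumor, 1.5% were lower in every footpad tumor by this ratio. This ratio, too, was chosen after the values were seen. Of 10 cartilage genes, Matn1, Snorc, Chad and Cnmd had reads in 1 tumor each and reached at most 0.138 CPM. Matn3 and Col11a2, by contrast, had reads in all 6 tumors, at 2.40 to 8.23 and 0.89 to 3.34 CPM, and overlapped between the sites. Acan, the main proteoglycan of cartilage, reached at most 0.408 CPM. Col2a1, the chain of the fibrils that type IX collagen covers, was at 7.32, 5.56 and 5.25 CPM in footpad tumors and at 47.2, 31.0 and 40.8 CPM in flank tumors. All flank tumors thus lay above all footpad tumors for Col2a1 as for Col9a1, and its log2 fold change was -2.71, with a standard error of 0.22 and an edgeR adjusted p of 0.00677. Hapln1, which links hyaluronan to proteoglycans, had a log2 fold change of -1.71 without overlap and did not pass (adjusted p = 0.0531 from edgeR). The 10 cartilage genes summed to 72.5 to 86.4 CPM in footpad and to 156 to 337 CPM in flank tumors, mostly from Hapln1 and Col2a1. Of the 5 cartilage genes that were tested, Col2a1 was the 1 called, and Sox9, the master regulator of cartilage, had a log2 fold change of -0.04 (edgeR adjusted p = 0.975).

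Col12a1, the chain of type XII collagen, had the largest positive log2 fold change of the members but missed the threshold. The footpad replicates 1, 2 and 3 held 147, 139.5 and 152 CPM. In the flank tumors it was at 19.0, 61.6 and 13.8 CPM. The footpad tumors were close together at a level above each flank tumor, whereas flank replicate 2 stood well above the other flank tumors. The means were 146 ± 6.15 CPM (SD, n = 3) and 31.4 ± 26.2 CPM, a 4.64-fold difference (log2 fold change 2.21, standard error 0.52, edgeR adjusted p = 0.0555). Without flank replicate 2 the log2 fold change was 3.15 and passed (adjusted p = 0.0033 from edgeR), where 2.93% of all genes were called. DESeq2 also called Col12a1 (adjusted p = 0.0142), where it called 8.75% of all genes. Over all alternatives the adjusted p of Col12a1 ran from 0.0033 to 0.157. The gene lies on the minus strand of chromosome 9 from 79598987 to 79721141.

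Col14a1, the chain of the related type XIV collagen, had a smaller difference of the same direction that did not pass either. It was at 9.23, 14.2 and 12.8 CPM in footpad tumors and at 2.54, 7.03 and 2.35 CPM in flank tumors. All footpad tumors lay above all flank tumors, and flank replicate 2 was again the highest of its site. The log2 fold change was 1.60 (standard error 0.45), with an adjusted p of 0.0816 in edgeR's test and 0.00373 in that of DESeq2. Without flank replicate 2 it was 2.30 with an adjusted p of 0.0224 from edgeR. Over all alternatives its adjusted p ran from 0.00373 to 0.21. The gene lies on the plus strand of chromosome 15 from 55307644 to 55520803.

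Col15a1, which encodes type XV collagen, was called higher in footpad tumors. The footpad tumors held 88.1, 70.0 and 73.1 CPM, and the flank tumors 9.92, 27.7 and 17.9 CPM. The lowest footpad tumor lay above the highest flank tumor by more than the range of either site. The means were 77.1 ± 9.67 CPM (SD, n = 3) and 18.5 ± 8.93 CPM, a 4.16-fold difference (log2 fold change 2.06, standard error 0.34, edgeR adjusted p = 0.0253). Col15a1 passed in 3 of the 6 fits without a tumor. Its edgeR adjusted p rose to 0.0949 without footpad replicate 1, 0.104 without footpad replicate 3 and 0.103 without flank replicate 3, with log2 fold changes of 1.95, 2.09 and 2.03, and 0.104 was the highest adjusted p over all alternatives. The gene lies on the plus strand of chromosome 4 from 47207655 to 47313167, and its exons overlap those of the opposite-strand gene Gm12426. The window before a RefSeq transcript start at 47208012 is shown as that of the other gene called, with the first 10 transcribed bases in capitals. This start and the whole window lie inside the gene bounds just given.
Col15a1, chr4:47207762-47208021: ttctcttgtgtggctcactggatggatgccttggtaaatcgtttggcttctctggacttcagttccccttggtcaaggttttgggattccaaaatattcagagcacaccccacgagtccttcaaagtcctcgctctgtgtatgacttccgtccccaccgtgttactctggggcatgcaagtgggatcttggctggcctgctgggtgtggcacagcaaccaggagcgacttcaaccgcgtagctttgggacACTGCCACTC
It held none of the 4 motifs. Windows were matched for 5 of the 9 genes, and among them only those of Col9a2 and Col16a1 held a motif, the SP/KLF motif in both.

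Col16a1, the chain of type XVI collagen, which occurs with fibrils and microfibrils of the dermis, was the most abundant member at both sites by FPKM. Its levels were 93.5, 104 and 102 CPM in the footpad and 62.1, 80.5 and 96.5 CPM in the flank. The sites overlapped through footpad replicate 1 and flank replicate 3 (log2 fold change 0.32, standard error 0.18, edgeR adjusted p = 0.291). Over the alternatives its log2 fold change lay between 0.17 and 0.48 and did not pass in any of them.

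Col19a1 and Col22a1 were close to the limit of detection, which was taken as 3 reads and equalled 0.0438 to 0.0673 CPM. Col19a1, the chain of the rare type XIX collagen of basement membrane zones, had 13, 19 and 13 reads in footpad tumors and 7, 15 and 0 in flank tumors. The 3 footpad values, from 0.265 to 0.292 CPM, lay only just above the 0.257 CPM of flank replicate 2 (log2 fold change 1.14, standard error 0.99, edgeR adjusted p = 0.508). Col22a1, a collagen of the junction between muscle and tendon, had 0, 16 and 8 reads in footpad tumors and 0, 8 and 0 in flank tumors, and entered no test. Skeletal muscle markers summed to 32.4, 571 and 6.59 CPM in the footpad tumors and to 10.3, 70.9 and 11.1 CPM in the flank tumors. Footpad replicate 2 and flank replicate 2, which had the most of these markers within each site, were 2 of the 3 tumors with reads of Col22a1, and the part of muscle in its level was not tested.

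**Figure D2:**
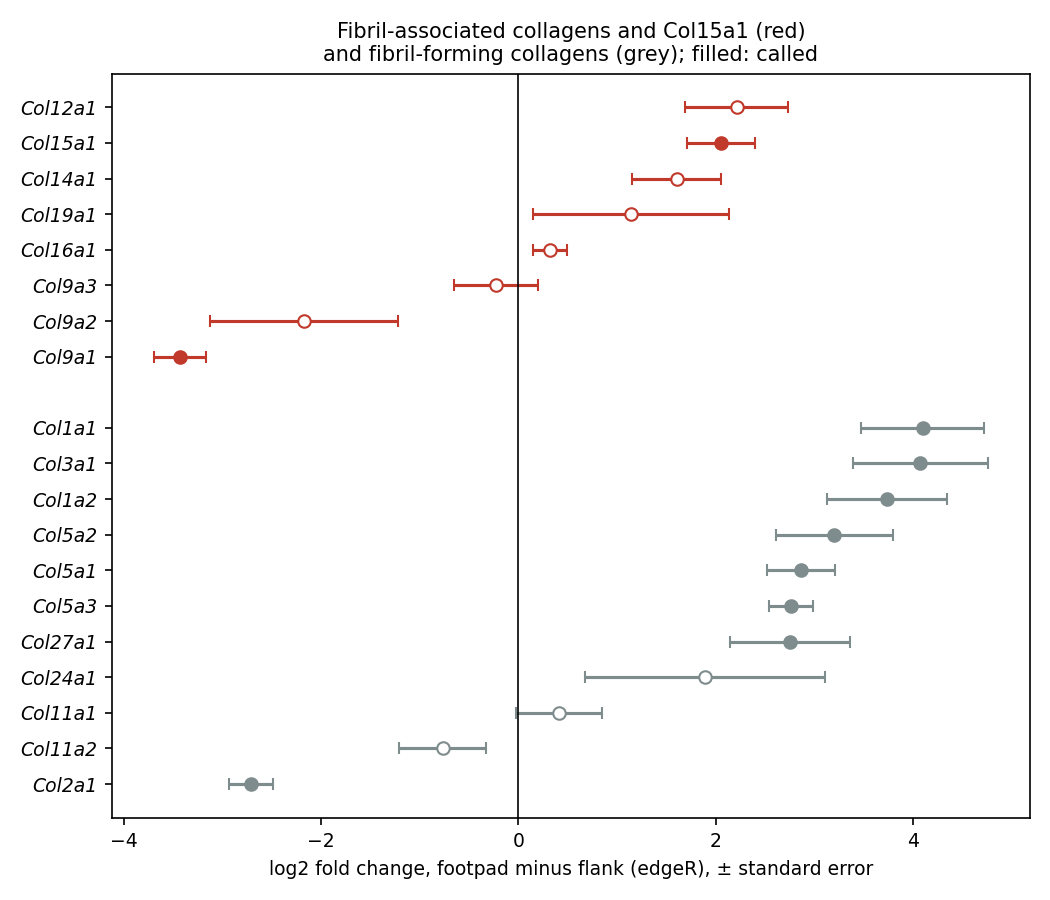
Log2 fold change of footpad minus flank from edgeR (x axis, with standard errors) for the 8 tested members in red and 11 fibril-forming collagens in grey, where filled points passed both thresholds. Members range from -3.43 in Col9a1 to 2.21 in Col12a1, and the fibril-forming collagens from -2.71 in Col2a1 to 4.10 in Col1a1.

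The order of the members by FPKM, which is scaled for length and so allows genes to be compared, changed between the sites. In footpad tumors Col16a1 led with a mean of 16.9 ± 2.08 FPKM (SD, n = 3), followed by Col15a1 with 12.9 ± 0.665 and Col12a1 with 11.0 ± 0.875 FPKM, and these 3 kept this order in each footpad tumor without overlap between neighbors. Col14a1 followed at 1.68 FPKM, then Col9a3 at 0.887 and Col9a1 at 0.634 FPKM, and the last 2 overlapped. In flank tumors Col16a1 again led, with 13.6 ± 3.52 FPKM, but Col9a1 came next with 7.94 ± 1.55 FPKM, ahead of Col15a1 with 3.20 ± 1.79 and Col12a1 with 2.42 ± 2.17 FPKM. Col9a1 did not overlap with Col16a1 or Col15a1 in flank tumors, whereas Col15a1 overlapped Col12a1, Col12a1 overlapped Col9a3 at 1.06 FPKM, and Col9a3 overlapped Col14a1 at 0.565 FPKM. Col9a2, Col19a1 and Col22a1 had means of at most 0.316 FPKM at either site.

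Fibril-forming collagens, the scaffold on which the members sit, were compared next. All 11 were tested, and edgeR called 7 higher and 1 lower, where it called 2.89% and 0.872% of all genes. Their median log2 fold change was 2.77, against -0.0042 over all genes. Col1a1 and Col1a2, the chains of type I collagen, had log2 fold changes of 4.10 and 3.74, and Col3a1, the chain of type III collagen, one of 4.08, all called. Col5a3 and Col5a2, chains of type V collagen, had 2.77 and 3.21, and Col27a1 had 2.76 (adjusted p = 0.00677, 0.0321 and 0.0481 from edgeR). Col2a1 was the gene called lower.

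Each member was then set against the summed CPM of Col1a1, Col1a2 and Col3a1 in the same tumor. Col12a1 had a mean log2 ratio of -4.32 (SD 0.212, n = 3) in footpad and -2.47 (SD 0.453, n = 3) in flank tumors. This made it 3.60-fold lower in footpad tumors relative to these fibrillar collagens, although its own level was above that of each flank tumor. Col15a1 was 4.60-fold and Col14a1 6.07-fold lower by the same measure. Col16a1, whose level overlapped between sites, was 16.4-fold lower, and Col9a3 was 22.2-fold lower. Col9a1 had the largest difference, from a mean log2 ratio of -2.36 (SD 1.35, n = 3) in flank to -10.2 (SD 0.482, n = 3) in footpad tumors. The sum leaves out Col2a1, the chain of the fibrils that type IX collagen covers, which was itself lower (log2 fold change -2.71). A ratio to Col2a1 was not tested. Without flank replicate 2, the flank tumor with the most of these fibrillar collagens, the difference was -8.62 for Col9a1 and -4.74 for Col16a1 in place of -7.84 and -4.03. For each of these 6 genes, the members with reads in every tumor, the 3 footpad tumors lay below the 3 flank tumors (exact permutation p = 0.1 for each, two-sided, and 0.1 after Benjamini-Hochberg adjustment over the 6, the lowest this design can give). The same held for 97.3% of the 16252 genes tested that had reads in every tumor, since the fibrillar collagens themselves rose, so that the direction is not particular to the members. Their rise, with log2 fold changes of 3.74 to 4.10, is also part of each fold given here.

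Against the summed fibroblast markers the members split. Most of that sum in each tumor was Fn1, at 833 to 1420 CPM in footpad and 190 to 262 CPM in flank tumors. The ratio was thus largely one to Fn1, whose own log2 fold change was 2.24. Col12a1, Col14a1 and Col15a1 overlapped between the sites, with differences of the mean log2 ratio of 0.29, -0.47 and -0.07 (two-sided exact permutation p = 0.7, 0.5 and 0.9). Col16a1 was lower in each footpad tumor by this ratio, with a difference of -1.90, and so were Col9a3 with -2.34 and Col9a1 with -5.71 (exact permutation p = 0.1 for each, and 0.2 after adjustment over the 6). By this ratio 89.8% of the 16252 genes were lower in every footpad tumor. For Col12a1 the ratio was thus lower in every footpad tumor against the fibrillar collagens and overlapped between the sites against the fibroblast markers.

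**Figure D3:**
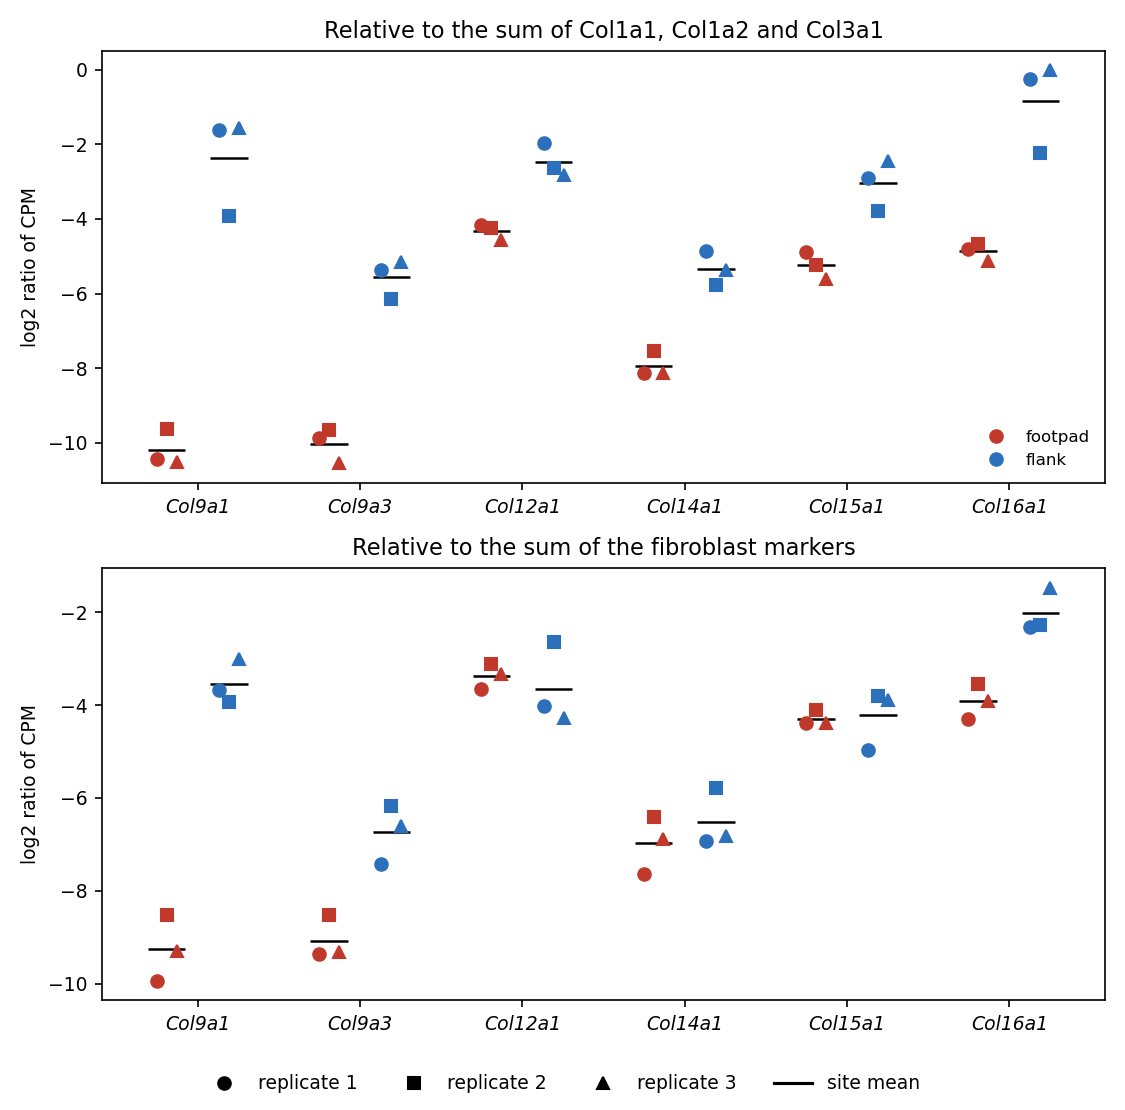
Log2 ratio of CPM (y axis) of the 6 members with reads in every tumor to the sum of Col1a1, Col1a2 and Col3a1 (upper panel) and to the sum of the fibroblast markers (lower panel), with 1 marker per tumor and a line at the mean of each site. In the upper panel the footpad tumors (red) lie below the flank tumors (blue) for all 6 genes, and in the lower panel the sites overlap for Col12a1, Col14a1 and Col15a1.

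Markers of some other cells moved with the site, and their counts without overlap stand against 32.5% of all genes. Of 15 fibroblast markers 12 did not overlap, all with the footpad above the flank, and 7 were called higher, against 2.89% of all genes. Their sum, mostly from Fn1, was 1204 to 1843 CPM in footpad and 267 to 386 CPM in flank tumors. Flank replicate 2 had the highest sum of its site. Among 10 endothelial markers 8 did not overlap, with sums of 317 to 356 and 177 to 217 CPM, and 3 of 9 pericyte and smooth muscle markers, a share near that of all genes, did not overlap, with sums of 161 to 237 and 80.1 to 137 CPM. Macrophage markers summed to 232 to 265 and 33.6 to 173 CPM, with 4 of 8 apart. Schwann cell markers summed to 381 to 397 and 434 to 456 CPM, with 1 of 7 higher and 1 lower. The 11 skeletal muscle and 9 neutrophil markers each overlapped between the sites. Tendon and myotendinous genes summed to 40.0 to 197 CPM in footpad and 0.0345 to 8.72 CPM in flank tumors, mostly from Thbs4 (log2 fold change 5.25, edgeR adjusted p = 0.0922). Fmod and Comp of this list were called higher, Tnmd was at 0.0673, 0.438 and 0.388 CPM in the footpad and had no read in the flank, Scx and Mkx had at most 0.204 CPM, and Kera had no read. Neutrophil markers summed to 6.87 to 367 CPM in footpad and 4.76 to 30.4 CPM in flank tumors. Keratinocyte markers were at 1407 CPM in footpad replicate 2 and at 3.38 to 53.5 CPM in the other tumors, and without that tumor Col15a1 and Col9a1 passed as before. The part of these cells in the levels of the members was not tested.

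Partners that bind the surface of fibrils were listed next. Of 15 genes, 14 were tested, and 8 were called higher and 1 lower, beside 2.89% and 0.872% of all genes. Their median log2 fold change was 3.43. Fn1, which encodes fibronectin, and Bgn, a small proteoglycan that binds type I collagen, had log2 fold changes of 2.24 and 3.30 (adjusted p = 0.0105 and 0.0253 from edgeR). Comp, a partner of type IX, XII and XIV collagens, was at 0.606, 1.28 and 5.90 CPM in footpad tumors and had 0 reads in flank tumors (edgeR adjusted p = 0.0375). Against a floor of 3 reads per flank library it was at least 51.6-fold higher, and with Comp at that bound the median of the 14 stayed at 3.43. Matn4, a matrilin, was the gene called lower, at 0, 0.102 and 0.204 CPM in footpad and 3.07, 1.78 and 1.60 CPM in flank tumors (adjusted p = 0.0381 from edgeR).

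Receptors and enzymes of collagens followed, beside 2.89% of all genes called higher and 0.872% called lower. A single call in lists this small shows little about the list. Of 10 collagen receptors 1 was called higher, Mrc2, which takes up collagen for degradation (log2 fold change 3.09, edgeR adjusted p = 0.0365), and their median was 0.05. Among 17 enzymes and chaperones of collagen synthesis 1 was called, Bmp1, a proteinase that trims procollagens (log2 fold change 1.16, edgeR adjusted p = 0.0154), and the median was 0.03. Plod2, a lysyl hydroxylase named after its values were seen, had an adjusted p of 0.0213 from edgeR but a log2 fold change of -0.98, short of the fold required. Of 8 related non-fibrillar collagens 6 were tested, with a median of 0.91, and Col23a1, a transmembrane collagen, was called higher (2.91, adjusted p = 0.0269 from edgeR). Col20a1, the fibril-associated collagen outside the examined set, had 0.71 (adjusted p = 0.187 from edgeR), and Col18a1, the relative of Col15a1, had 0.81 without overlap between sites (adjusted p = 0.102 from edgeR).

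The genes whose pattern over the 6 tumors was most like that of a member were found by the root mean square difference of log2 CPM, centered for each gene, among genes with a mean of 1 CPM or more. The closest genes to Col9a1 of 13602 were Dhrs2, Akr1b7 and Pla2g3, at 0.446, 0.472 and 0.495 on the log2 scale, and all 3 were called lower in footpad tumors. Those closest to Col9a2 were Fitm1, Avil and Matn4, and Col9a1 ranked 17 of 13603 for it. Col9a3 was closest to Sema3d, Acp5 and Pla2r1 and had Col9a1 at rank 13256. Col12a1 was closest to Col8a1 (0.201), Ptgis and Kcnk6, and Col14a1 to Lama2 (0.185), Cacna2d1 and Vav3. Col12a1 and Col14a1 were near each other, at a difference of 0.462, which was rank 57 for Col12a1 and rank 65 for Col14a1. Col15a1 was almost as near to both by this difference. It was at 0.474 from Col14a1 (rank 79 for Col14a1 and 203 for Col15a1). From Col12a1 it was at 0.517 (rank 105 for Col12a1 and 258 for Col15a1). Col15a1 was closest to Tnfrsf11a (0.123), C3ar1 and Sqor, Col16a1 to Prpsap1, 2610318N02Rik and Hmgxb3, and Col19a1 to Gpr153, Tagln and Fmo2. This likeness rests on 6 tumors that fall into the sites compared, and it describes them only.

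**Figure D4:**
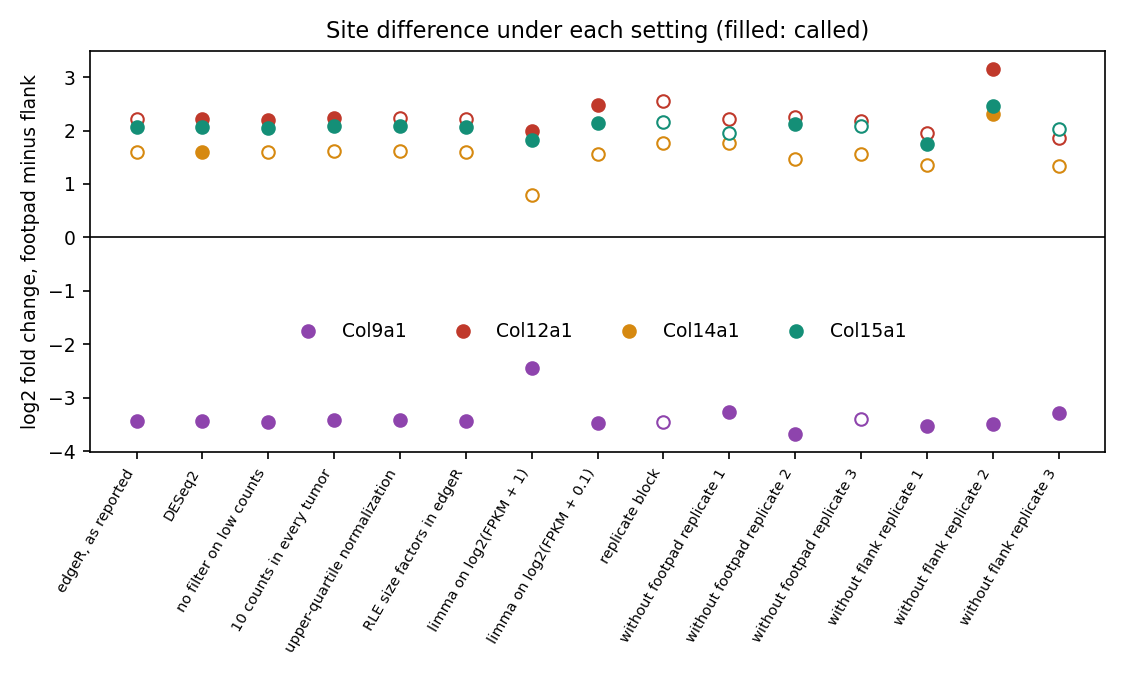
Log2 fold change (y axis, footpad minus flank) of Col9a1, Col12a1, Col14a1 and Col15a1 under each analysis setting (x axis), where filled points passed both thresholds. The directions of all 4 genes stay the same, with Col9a1 between -3.67 and -2.44, whereas the calls change with single tumors, the tool and the filter.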

How the data were processed

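Total RNA of 3 footpad and 3 flank B16F10 tumors was analysed, with site and replicate taken from the sample titles. The authors prepared stranded libraries, checked reads with FastQC 0.11.7, trimmed them with Trimmomatic, aligned them to mm10 with HISAT2 2.1.0 and deposited whole read counts per gene without normalization. FPKM values, scaled by the authors for transcript length and depth, were deposited as well. The counting program is not given in the sources used here, nor is its treatment of reads shared between genes. Coordinates and promoter windows came from RefSeq on GRCm38.p6, the assembly behind mm10, and exon overlaps and strands from GENCODE M21 on GRCm38.

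Counts were fitted in R 4.3.3 with edgeR 4.0.16 (TMM, filterByExpr, glmQLFit, glmQLFTest) over 17210 genes, with Benjamini-Hochberg adjustment. CPM used the scaled library sizes, log2 CPM a prior count of 1, and depth allowed a floor of 3 reads per tumor. Biological variation, with a common coefficient of 0.338, exceeded counting error. Tumors of 1 site differed by a chi-square of 63.9 to 564 per gene, so none were merged. Ratios were tested with an exact permutation test over tumors. Alternatives were DESeq2 1.42.0, limma 3.58.1 on log2(FPKM + 1) and log2(FPKM + 0.1), other filters and scalings, the replicate number as a block and leaving out each tumor.

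The members, gene lists and tests were chosen with earlier results of these data known. Named were all members, the 3 genes closest to each tested member, Col1a1, Col1a2 and Col3a1, and of each pathway list up to 4 genes called, those with the smallest and largest adjusted p. The shares of all genes lower by a ratio were added, and Hapln1, Plod2, Col18a1, Col20a1 and the cartilage and tendon genes named were chosen after their values were seen. No protein sequences were used here. Python 3.11.15 with numpy 2.4.6, pandas 2.3.3 and matplotlib 3.10.9 made the tables and figures.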

Additional observations from a re-analysis of the deposited data

How the results depend on the processing

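Over the alternatives, 109 of 110 refits of a member's log2 fold change kept their direction, and 95 kept both direction and call. The exception in direction was Col9a3 without flank replicate 2, at 0.30, where leaving out each tumor gave -0.53 to 0.30. Of 76 refits of a ratio 75 kept their direction, and the other was Col12a1 against the fibroblast markers, at 0.29 with overlap between the sites. The cause was not tested in either case. Most of the 76 were refits of the ratio to Col1a1, Col1a2 and Col3a1. By that ratio 97.3% of the 16252 genes with reads in every tumor were lower in every footpad tumor. The count of 75 therefore says little about the members. Scalings and tools moved the median log2 fold change of all genes by less than 0.1. Of the members, 1 was called higher by edgeR, 3 by DESeq2 (Col12a1, Col14a1 and Col15a1), and 2 (Col12a1 and Col15a1) with no filter on low counts, with 10 counts required in every tumor, and by limma on log2(FPKM + 1) or log2(FPKM + 0.1). Leaving out each tumor, the number higher ranged from 0 to 3, with 0 without footpad replicate 1, footpad replicate 3 or flank replicate 3 and 3 without flank replicate 2, and the number lower from 0 to 1, with 0 without footpad replicate 3. Among all 17210 genes tested, edgeR called 497 higher and 150 lower, DESeq2 1154 and 352, and limma on log2(FPKM + 1) 271 and 95. By limma on log2(FPKM + 0.1) these counts were 639 and 215. They were 472 and 150 of 28849 genes with no filter on low counts, and 557 and 161 of 14826 with 10 counts in every tumor. With no fold threshold edgeR called 248 lower. Without each tumor in turn, the number higher ranged from 0 to 639 and the number lower from 0 to 197, and both were 0 without footpad replicate 3, where 3289 genes had an unadjusted p under 0.05 in edgeR's test and 4 of them were members. They were 26 and 5 without footpad replicate 1, 36 and 10 without flank replicate 3, 231 and 77 without flank replicate 1 and 432 and 98 without flank replicate 2, with all members in the same direction except Col9a3.

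The sites were checked for a pairing by replicate number. Deviations from the site means of same-numbered tumors had correlations of 0.0544, -0.0965 and -0.115 across genes. No tumor correlated best with the tumor of its own number at the other site. With 3 tumors a site, these values cannot show whether tumors of the same number came from the same animal. With the replicate number as a block, edgeR called 0 members and 0 genes higher, and 0 members and 0 genes lower, while 3551 genes and 4 members had an unadjusted p under 0.05. Under the block the log2 fold change was -3.46 for Col9a1 (adjusted p = 0.0552 from edgeR) and 2.16 for Col15a1 (adjusted p = 0.0832 from edgeR). Depth limits Col9a2, Col19a1 and Col22a1, which had at most 84 reads in a tumor. The requirement of 10 counts in every tumor removed Col9a2 and Col19a1.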
